A study of Mus musculus with 6 samples.

Results

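The nuclear-encoded subunits of the mitochondrial respiratory chain were compared between CD103+ and CD103- natural killer T (NKT) cells of the mouse thymus. The set held all probes whose annotated gene symbol starts with Nduf, Uqcr, Cox4, Cox5, Cox6, Cox7, Cox8 or Atp5, or is Sdha, Sdhb, Sdhc or Sdhd. It comprised 135 of 45263 probes, for 87 of the 19057 genes annotated on the array. The symbols alone decided which probes were members, but this rule was set with earlier results of these data known. The prefixes also brought in 8 complex I assembly factors (Ndufaf genes) and 1 pseudogene, Ndufs5-ps.

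The respiratory chain sits in the inner mitochondrial membrane. Complexes I and II pass electrons from NADH and succinate to ubiquinone, complex III passes them on to cytochrome c, and complex IV (cytochrome c oxidase) reduces oxygen. The protons pumped on the way drive complex V, the ATP synthase. Most subunits are encoded in the nucleus, and the remainder in mitochondrial DNA. Several cytochrome c oxidase subunits exist as a form found in most tissues and a second form of heart, skeletal muscle, lung or testis. In T lymphocytes, the balance of respiration and glycolysis is known to differ between resting, effector and memory states.

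NKT cells are T lymphocytes whose receptor recognises lipids presented by CD1d. The thymus of male C57BL/6 mice gave mature NKT cells (CD44+ and NK1.1+), which were divided into a CD103+ and a CD103- population. Each population was measured on 3 bead arrays as biological replicates. CD103 is the integrin alpha E chain, encoded by Itgae. The series concerns the cytoskeletal regulator DOCK8, but no genotype, treatment or age is given in the labels of these 6 samples, and they state neither how many mice each sample pooled nor which chips the arrays shared.

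Itgae was 26.5-fold higher on the CD103+ arrays (log2 difference 4.73, SE 0.181, n = 3 and 3, limma adjusted p = 9.50e-05), and its 6 probes gave log2 differences of 3.76 to 5.15. All 8 NKT and T cell identity genes were detected on all 6 arrays. Their median log2 difference was -0.24, with 2 positive and 6 negative, and 0 passed by limma. At an unadjusted limma p under 0.05, 2 were lower and 0 higher, against 14.2% of all genes in either direction. The lower ones were Zbtb16 at -0.68 (SE 0.137) and Il2rb at -0.66 (SE 0.176). Mean signal over all probes was 502 to 826 on the CD103+ arrays, 526 on CD103- array 1 and 277 on both CD103- arrays 2 and 3. Of 11 macrophage and myeloid marker genes, 10 were higher in CD103+ cells by limma, against 104 of all 8999 genes. With replicate numbers blocked, 6 were higher, against 51 of all genes. The median log2 difference of the 11 was 3.12. Of the same 11 genes, 4 were detected on any CD103- array. The others met the detection filter through the CD103+ arrays alone. Their CD103- values are background, so the size of their differences and of the median is uncertain. The summed raw signal of the 11 genes was 7137 to 12052 on the CD103+ arrays and 2692 to 3134 on the CD103- arrays. That was 0.0314% to 0.0338% and 0.0132% to 0.0219% of all signal. On the normalized log2 scale, Lyz2 had 10.16 to 10.51 on the CD103+ arrays and 4.53 to 5.73 on the CD103- arrays. Apoe had 7.37 to 8.65 against 4.56 to 4.86, and C1qb had 7.74 to 8.86 against 4.57 to 4.59. Both were undetected on every CD103- array. With undetected values set to the lowest detected signal of their array, they were at least 6.33-fold and 7.97-fold higher. Csf1r did not pass. It was detected on all 6 arrays, with 5.98 to 6.31 against 5.54 to 6.29 (difference 0.31, SE 0.221, limma adjusted p = 0.545). Markers of other cells were also found. Of 5 immature thymocyte, 3 B cell and 2 erythroid genes on the array, 3, 1 and 1 were kept, and 0 passed. Cd8b1, of immature thymocytes, had 10.35 to 10.64 on the CD103+ arrays and 10.77 to 10.97 on the CD103- arrays. Hba-a1, of erythroid cells, had 6.36 to 9.35 and 6.38 to 8.52. The part of all these markers in the values below was not tested. With array brightness as a covariate, 8 probes of the array passed (0.0458%), and without the dim CD103- arrays 2 and 3, 135 did (0.773%). No respiratory chain probe was among them.

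Most of the respiratory chain was measurable. A probe was kept for testing when its detection p, the array's test of signal against negative controls, was under 0.05 on at least 3 of 6 arrays. This kept 109 of the 135 member probes and 76 of the 87 member genes (87.4%, against 47.2% of all annotated genes). The 76 genes comprised 68 subunit genes, 7 assembly factors and the pseudogene. Of the 109 kept probes, 105 were detected on every array, and no kept member probe was undetected on all arrays of a population. The median normalized log2 signal of the 76 genes, each taken at the kept probe whose mean was highest, was 11.25, 11.24 and 11.22 on CD103+ arrays 1, 2 and 3 and 11.21, 11.18 and 11.17 on CD103- arrays 1, 2 and 3. Before normalization the median raw signal of the members was 3349, 4985 and 2481 on the CD103+ arrays and 2515, 891 and 890 on the CD103- arrays, so the raw levels followed the brightness of the arrays.

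No respiratory chain gene passed the test between the populations. Of 109 member probes, 0 had a limma adjusted p under 0.05, while 206 of all 17462 kept probes did (1.18%), with 162 higher (0.928%) and 44 lower (0.252%). By gene, 0 of 76 members passed against 124 of 8999 genes (1.38%). Of the 2081 other genes whose mean level lay between the quartiles of the members' levels, 13 passed (0.625%). With shares this low, a count of 0 among the members does not set them apart from other genes. At an unadjusted p under 0.05 there were 3 member probes, where 15.1% of all probes reached that level. Of the 3, 1 was higher and 2 were lower, against 9.04% and 6.02% of all probes. By gene there were 2 of 76 (2.63%), against 14.2% of all genes and 7.88% of the 2081 other genes of similar level. With the replicate number as a block, 83 probes of the array passed (0.475%) and again 0 member probes.

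The differences of the members centred on 0. The median log2 difference, CD103+ minus CD103-, was -0.01 over the 76 genes, with quartiles of -0.12 and 0.14, and 38 genes were positive and 38 negative. Over all 8999 genes the median was 0.05, with quartiles of -0.14 and 0.23 and 56.9% positive. The 2081 other genes in the members' range of level had a median of 0.03 and quartiles of -0.11 and 0.16, close to those of the members. The members ranged from -0.48 for Atp5d to 0.69 for Atp5k. Only 1 of 76 members (1.32%) differed by more than 0.5 on the log2 scale, compared with 13.4% of all genes and 3.70% of the other genes in the same range of level. These comparisons of shares are descriptions and carry no test. All differences are of 3 CD103+ against 3 CD103- arrays, with the SE from limma.

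**Figure D1:**
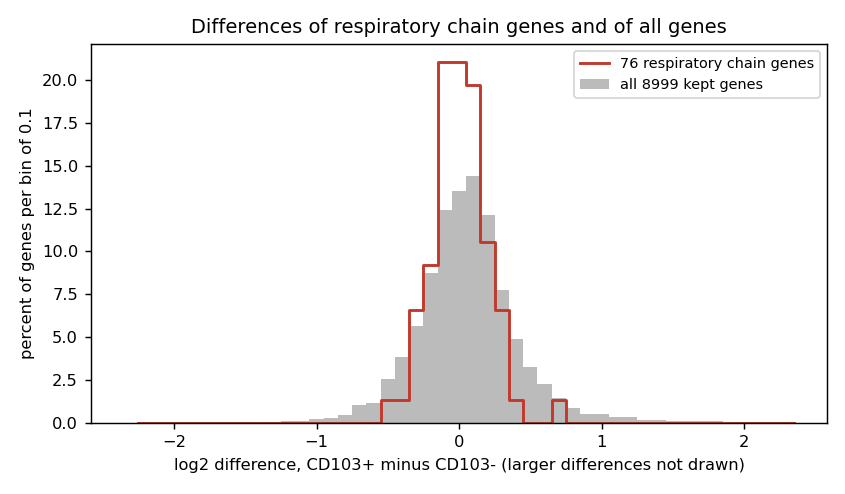
Percent of genes in each bin of 0.1 by log2 difference, CD103+ minus CD103-, for 76 respiratory chain genes (red line) and all 8999 kept genes (grey bars), with each gene at its kept probe of highest mean. The red line is narrower than the grey bars, which hold genes of all levels, and 75 of its genes lie within 0.5 of 0. Other genes of similar level, not drawn apart, had quartiles of -0.11 and 0.16, close to the members' -0.12 and 0.14.

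The width of the intervals limits what could be seen. The 95% confidence interval of the log2 difference lay within a 2-fold change in either direction for 74 of 76 member genes (97.4%), against 82.2% of all genes and 96.9% of the genes of similar level. It lay within a 1.5-fold change for 49 of 76 members (64.5%), against 39.6% of all genes and 68.4% of the genes of similar level. The median half-width was 0.37 on the log2 scale. The exceptions to the wider bound were Atp5k, with an interval of -0.10 to 1.48, and Atp5md, a small subunit of ATP synthase, with -1.01 to 0.56. Among probes at or above the lower quartile of the members' levels, the smallest difference that passed was 0.78 on the log2 scale, a 1.72-fold change. No limit of detection was measured. The smallest p that permuting the 6 array labels can give for a gene is 0.1.

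The normalization sets the zero point of these differences. With the arrays scaled to the median of all probes, most of which were undetected, all 76 members were higher in CD103+ cells, with a median log2 difference of 1.07, but the median of all genes also moved, to 1.03. Under that scaling 57 of 109 member probes (52.3%) passed, all higher, against 7154 of 17462 probes (41.0%). With the medians taken over the kept probes instead, 0 member probes passed and the median of the members was 0.05. All directions below are therefore relative to the array as a whole under quantile normalization, and each of the 76 genes, those with negative values here included, was positive with the median of all probes as the reference. The direction of single members also turned with the arrays and settings used. Relative to the main values, the sign changed for 34 of 76 genes without the dim CD103- arrays, for 41 with array brightness as a covariate, for 19 with the authors' values and for 0 with the replicate block. Sign changes over all genes were not counted, and many of the main values were near 0. Both dim arrays were CD103-, so the brightness covariate is partly confounded with population. In sorted bulk cells, fewer cells with a transcript and less transcript in each cell cannot be told apart.

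**Figure D2:**
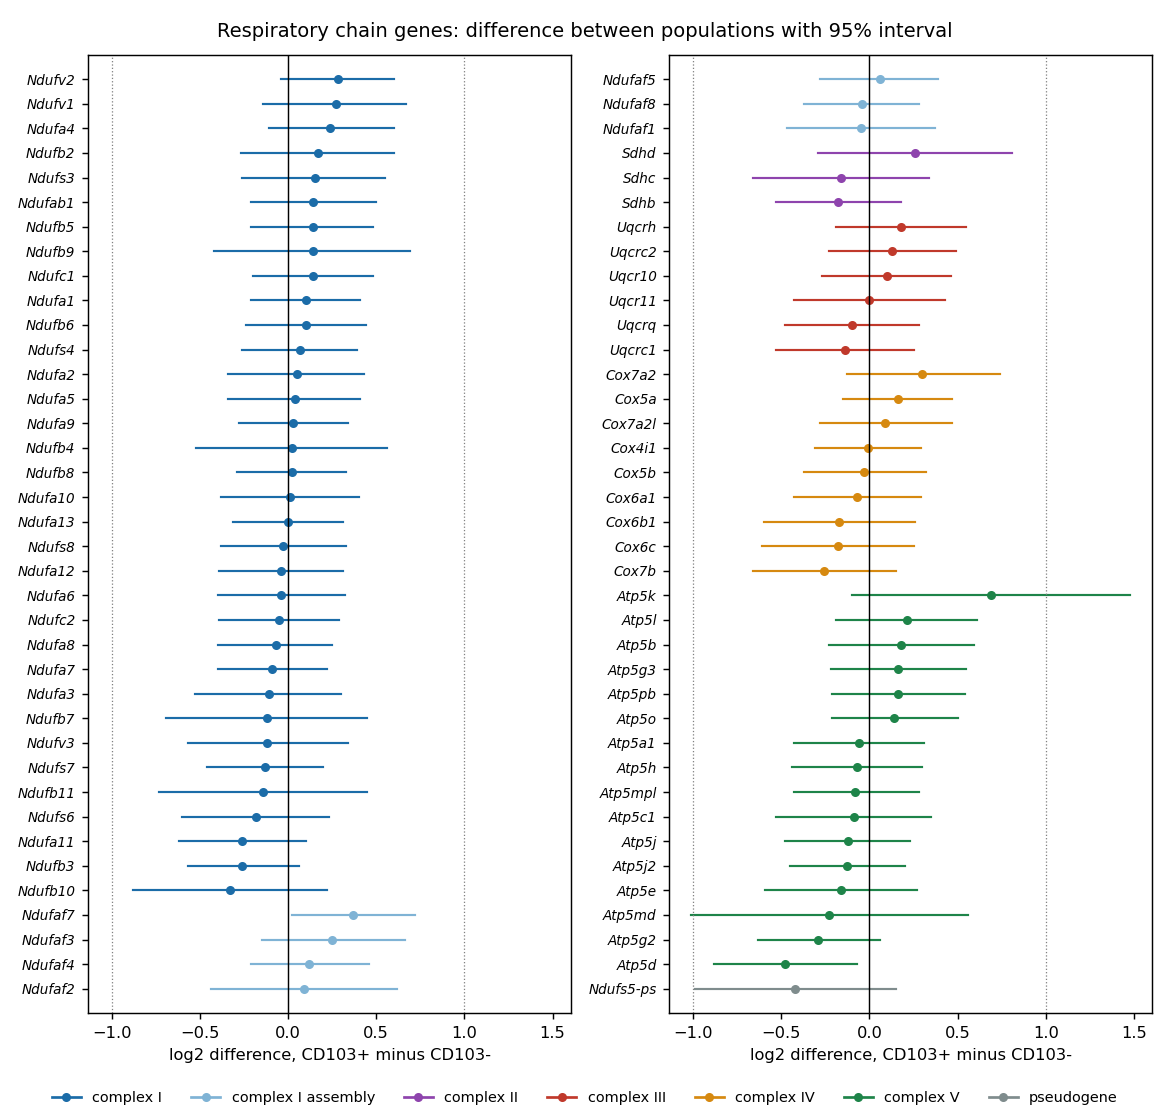
Log2 difference, CD103+ minus CD103-, with its 95% confidence interval from limma for each of 76 respiratory chain genes, coloured by complex, with dotted lines at a 2-fold change. Most intervals cross 0, those of Ndufaf7 and Atp5d do not, and those of Atp5k and Atp5md cross a dotted line.

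Complex I, the NADH dehydrogenase, was represented by 34 of its 35 annotated genes. Their log2 differences ran from -0.33 to 0.28, with a median of 0.01, and 0 passed in either direction. None of the 34 differed by more than 0.5. Ndufv1 and Ndufv2 belong to the module that oxidises NADH, the former carrying the flavin and the latter an iron-sulfur cluster. The normalized log2 signal of Ndufv2 was 11.41, 11.49 and 11.32 on CD103+ arrays 1, 2 and 3 and 11.15, 11.04 and 11.20 on CD103- arrays 1, 2 and 3. All CD103+ arrays were above all CD103- arrays, but the difference of 0.28 (SE 0.136, limma adjusted p = 0.392) did not pass. Ndufv1 had 11.10, 11.40 and 11.21 on the CD103+ arrays and 10.76, 10.94 and 11.22 on the CD103- arrays. The populations overlapped through CD103- array 3 (difference 0.27, SE 0.174, limma adjusted p = 0.513).

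Other core subunits of complex I carry electrons from the NADH module towards ubiquinone. The core iron-sulfur subunits Ndufs7 and Ndufs8 had log2 differences of -0.13 (SE 0.143) and -0.03 (SE 0.150), and the core subunit Ndufs3 had 0.15 (SE 0.174). Ndufa9, an accessory subunit near the ubiquinone site, had 0.03 (SE 0.131). Ndufa13, an accessory subunit also known as GRIM-19, was the complex I gene at the probe of highest mean. Its values of 13.52, 13.56 and 13.45 in CD103+ cells and 13.49, 13.58 and 13.45 in CD103- cells nearly coincided at equal array numbers, for a difference of 0.00 (SE 0.132).

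The most negative complex I genes were accessory subunits of the membrane arm. Ndufb10 had normalized log2 signals of 9.47, 9.52 and 9.40 on the CD103+ arrays and 9.26, 10.09 and 10.03 on the CD103- arrays (difference -0.33, SE 0.236, limma adjusted p = 0.551). The dim CD103- arrays 2 and 3 were above every CD103+ array and CD103- array 1 was below them all. Its direction turned with the arrays used. The difference was -0.59 without CD103- array 1 (limma adjusted p = 0.0634), but 0.21 without the dim CD103- arrays (limma adjusted p = 0.656) and 0.04 with array brightness as a covariate (limma adjusted p = 0.989). Ndufa11 had 9.60, 9.53 and 9.75 on the CD103+ arrays and 9.69, 9.99 and 9.98 on the CD103- arrays (difference -0.26, limma adjusted p = 0.478), and the populations overlapped. Ndufb3 had 10.80, 10.64 and 10.80 against 10.93 to 11.07, with every CD103- array above every CD103+ array (difference -0.26, limma adjusted p = 0.426).

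Ndufa4 was first assigned to complex I and is now regarded as a subunit of cytochrome c oxidase. Its normalized log2 signal was 12.99, 13.04 and 13.05 on the CD103+ arrays and 12.57, 12.83 and 12.94 on the CD103- arrays. The populations did not overlap, though CD103- array 3 was close to CD103+ array 1 (difference 0.24, SE 0.151, limma adjusted p = 0.491).

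The 7 kept complex I assembly factors, which build the complex without remaining in it, had a median log2 difference of 0.09 and ranged from -0.05 to 0.37. Ndufaf7, a methyltransferase that acts early in assembly, had 7.98, 8.02 and 7.87 on the CD103+ arrays and 7.70, 7.38 and 7.68 on the CD103- arrays. All CD103+ arrays were above all CD103- arrays, and the difference of 0.37 (SE 0.151, 95% interval 0.02 to 0.72) had an unadjusted p of 0.0428 and a limma adjusted p of 0.316. Ndufaf3 and Ndufaf4 act together on the ubiquinone-binding module. In CD103+ against CD103- arrays, Ndufaf3 had 6.85, 6.81 and 6.75 against 6.59, 6.27 and 6.80 (difference 0.25, SE 0.172). Ndufaf4 had 10.29, 10.21 and 10.47 against 10.11, 10.21 and 10.28 (difference 0.12, SE 0.144). Ndufaf1, a factor for the membrane arm, had 10.20, 10.40 and 9.83 against 10.15, 10.28 and 10.15 (difference -0.05, SE 0.180). Ndufaf8, a partner of Ndufaf5, had 8.73, 8.93 and 8.90 against 8.83, 8.98 and 8.87 (difference -0.04, SE 0.139). The populations overlapped for these 4 factors. Ndufaf6 was not detected on any array.

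Complex II, succinate dehydrogenase, also works in the tricarboxylic acid cycle. It has 4 subunits, and 3 of them were measured. Sdhb, the iron-sulfur subunit, had normalized log2 signals of 10.10, 10.19 and 10.13 on the CD103+ arrays and 10.47, 10.36 and 10.11 on the CD103- arrays (difference -0.18, SE 0.150, limma adjusted p = 0.623). Sdhc, a membrane anchor, had 10.40, 10.08 and 10.39 against 10.03, 10.65 and 10.67 (difference -0.16, SE 0.215, limma adjusted p = 0.757). Sdhd, the other anchor, had 8.64, 9.17 and 8.78 against 8.28, 9.01 and 8.50 (difference 0.26, SE 0.235, limma adjusted p = 0.635). The populations overlapped for all 3 genes. Sdha, the flavoprotein that oxidises succinate, was not detected by its probe on any array, with detection p-values of 0.269 to 0.661. The other 3 subunit genes each had a probe detected on all 6 arrays.

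The 6 kept genes of complex III, which transfers electrons to cytochrome c, had a median log2 difference of 0.05 and ranged from -0.14 to 0.18. Uqcrh, the hinge subunit that helps dock cytochrome c, had 13.63, 13.63 and 13.55 on the CD103+ arrays and 13.67, 13.28 and 13.32 on the CD103- arrays. CD103- array 1 was the highest of all 6 arrays and the other CD103- arrays were the lowest (difference 0.18, SE 0.157, limma adjusted p = 0.636). The core subunits Uqcrc2 and Uqcrc1 had differences without a stable sign. Uqcrc2 had 12.49, 12.53 and 12.44 against 12.58, 12.19 and 12.31 (difference 0.13, SE 0.153) and Uqcrc1 had 10.56, 10.51 and 10.85 against 10.58, 10.82 and 10.92 (difference -0.14, SE 0.167). These were 0.14 and 0.04 with the authors' values, and -0.09 and 0.06 without the dim CD103- arrays. Uqcrq, a small subunit, had 9.28, 9.44 and 9.31 against 9.67, 9.43 and 9.23 (difference -0.10, SE 0.162). Neither these nor Uqcrh separated the populations. Uqcrfs1, the Rieske iron-sulfur protein, was not detected on any array by either of its probes.

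For complex V, the ATP synthase, 16 of 16 annotated genes were kept. Their median log2 difference was -0.07, with 6 positive and 10 negative, and both extremes of the whole set were among them. Atp5b and Atp5a1 encode the catalytic beta and the alpha subunit of the head that makes ATP. Atp5b had normalized log2 signals of 13.89, 14.08 and 14.05 on the CD103+ arrays and 13.58, 13.80 and 14.11 on the CD103- arrays (difference 0.18, SE 0.175, limma adjusted p = 0.674). Its highest and its lowest value were both on CD103- arrays. For Atp5a1, the probe with the higher mean had a difference of -0.06 (SE 0.158). Its second probe had 7.95, 8.18 and 8.41 against 8.50, 9.03 and 8.59, lower on every CD103+ array (difference -0.53, SE 0.201, unadjusted p = 0.0332, limma adjusted p = 0.292), so the probes of Atp5a1 did not give 1 size of difference.

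Atp5d, the delta subunit of the rotating stalk, had the most negative difference of the 76 genes. Its normalized log2 signal was 10.65, 10.33 and 10.68 on the CD103+ arrays and 10.86, 11.23 and 10.99 on the CD103- arrays. Every CD103+ array was below every CD103- array, and the difference of -0.48 (SE 0.172, 95% interval -0.88 to -0.07), a 1.39-fold lower signal, had an unadjusted p of 0.0265 and a limma adjusted p of 0.271. It was -0.31 without the dim CD103- arrays and -0.16 with array brightness as a covariate (limma adjusted p = 0.914). Atp5g2 and Atp5g3 encode the same mature protein, the c subunit of the rotor ring. Atp5g2 had 10.58, 10.34 and 10.45 on the CD103+ arrays and 10.60, 10.85 and 10.78 on the CD103- arrays, without overlap (difference -0.29, SE 0.148, limma adjusted p = 0.413). Atp5g3 had 14.00, 14.07 and 13.92 against 13.57, 13.91 and 14.02, with overlapping populations (difference 0.16, SE 0.165, limma adjusted p = 0.677). The sign of Atp5g3 turned with the normalization, to -0.01 under cyclic loess and -0.14 with scaling over kept probes, and with the authors' values Atp5g2 and Atp5g3 were both at -0.10. Atp5k and Atp5l encode subunits e and g of the membrane part. Atp5k had 6.24, 6.45 and 6.12 against 6.25, 4.83 and 5.65, and was detected on all 3 CD103+ arrays and on 2 of 3 CD103- arrays. Its difference was 0.69 (SE 0.336, limma adjusted p = 0.390), with CD103- array 1 inside the CD103+ range. It was 0.02 without the dim CD103- arrays and -0.02 with array brightness as a covariate. Atp5l had 13.28, 13.44 and 13.23 against 13.39, 12.93 and 12.99 (difference 0.21, SE 0.172, limma adjusted p = 0.605), and its populations overlapped through CD103- array 1.

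Ndufs5-ps, annotated as a pseudogene, had 9.27, 8.99 and 9.77 on the CD103+ arrays and 9.50, 10.06 and 9.72 on the CD103- arrays (difference -0.42, SE 0.242, limma adjusted p = 0.464). A probe for it may also bind the transcript of its parent gene, so its signal is uncertain.

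In complex IV, cytochrome c oxidase, 9 of 16 annotated genes were kept. Their median log2 difference was -0.03 and ranged from -0.26 to 0.30. Cox4i1, a large nuclear-encoded subunit, had 12.95, 12.93 and 12.95 on the CD103+ arrays and 12.90, 12.96 and 13 on the CD103- arrays. The CD103+ values lay inside the range of the CD103- values (difference -0.01, SE 0.129). Cox5a had 12.39, 12.52 and 12.45 against 12.25, 12.28 and 12.34, and all CD103+ arrays were the higher, at a difference of 0.16 (SE 0.131, limma adjusted p = 0.605). Cox7a2, the widely expressed form of subunit VIIa, had 8.26, 8.47 and 7.97 against 8.10, 7.99 and 7.71, with overlapping populations (difference 0.30, SE 0.186, limma adjusted p = 0.490). The small subunits Cox7b and Cox6c had negative differences. Cox7b had 8.89, 9.09 and 8.74 against 9.27, 9.29 and 8.92 (difference -0.26, SE 0.173) and Cox6c had 12.17, 12.02 and 12.16 against 11.95, 12.51 and 12.43 (difference -0.18, SE 0.184). Cox7a2l had 12.30, 12.45 and 12.18 against 12.42, 12.05 and 12.19 (difference 0.09, SE 0.160). All 3 overlapped between the populations.

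The genes of complex IV that were not kept were its tissue forms. In each pair with a widely expressed form, that form was detected on all 6 arrays and the tissue form on at most 1 array by any probe. Cox4i1 was detected and Cox4i2, the form known from lung, was not, with detection p-values of 0.413 to 0.997. Cox6a1 was detected on every array, with 12.32, 12.30 and 12.10 against 12.45, 12.33 and 12.14 (difference -0.07, SE 0.153), whereas Cox6a2, the heart and muscle form, had detection p-values of 0.0641 to 0.736. Cox6b1 was detected, with 12.30, 12.34 and 12.69 against 12.34, 12.71 and 12.79 (difference -0.17, SE 0.186), while the probes of Cox6b2, the testis form, were each detected on 1 of 6 arrays, with lowest detection p-values of 0.0449 and 0.0438. Cox7a1, the heart and muscle form of subunit VIIa, had 0.130 to 0.535. Cox7b2, Cox8b and Cox8c were also undetected on every array, with lowest detection p-values of 0.454, 0.768 and 0.196. Cox8a, the common partner of Cox8b and Cox8c, was not analysed here. The muscle markers on the array were at background as well, with 0 of 5 genes detected on any CD103- array and 1 on a CD103+ array. A detection p over 0.05 does not show that a transcript is absent. Ndufs1, a core subunit of complex I, was detected on CD103- array 2 alone, with a highest detection p of 0.950.

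**Figure D3:**
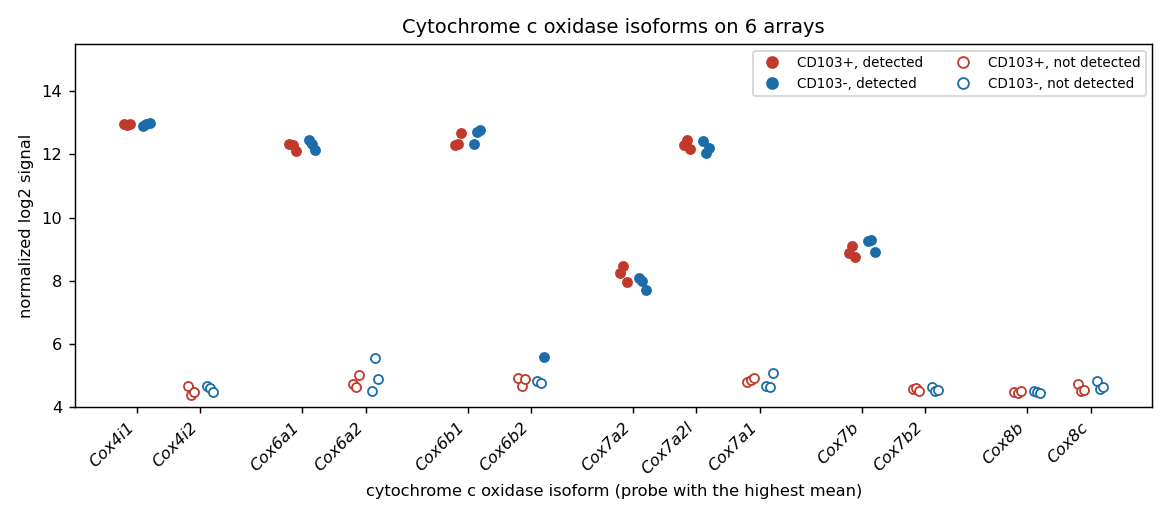
Normalized log2 signal of cytochrome c oxidase isoforms on the 3 CD103+ and 3 CD103- arrays, with filled points for detection p under 0.05 and open points otherwise. The widely expressed forms are filled on all 6 arrays and the tissue forms are open but for 1 array of Cox6b2, and heights are comparable within a gene but not between genes.

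Promoter sequences are shown for subunits that were detected and for subunits that were not. Nuclear genes of the respiratory chain are known targets of the transcription factors NRF1, GABPA and YY1. RefSeq promoter windows of mouse build GRCm38.p6, from 250 bases before to 50 after the transcription start, were found for 72 of 87 member genes and searched on both strands. The consensus NRF1 motif was in 18 of 72 member genes (25.0%), against 5.19% of 27025 genes. The GABPA motif CCGGAAG was in 18 (25.0%), against 9.93%, and the YY1 motif AAGATGGC in 11 (15.3%), against 3.19%. Among the 66 genes kept on the arrays 17, 18 and 11 held them, and among the 6 genes not kept 1, 0 and 0. A match is a match of letters and does not show binding.

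The 250 bases before the start are printed 5′ to 3′ on the strand of the gene, with NRF1 and GABPA matches in capitals on either strand. Cox6a1 (chr5:115348959-115349208, minus strand) holds 2 NRF1 matches and 1 GABPA match. Cox6b1 (chr7:30626115-30626364, minus strand) holds 1 GABPA match. Its testis form Cox6b2 (chr7:4753095-4753344, minus strand) holds none of the motifs. Sdhd (chr9:50603850-50604099, minus strand) holds 1 NRF1 match and 1 GABPA match. Sdha (chr13:74350241-74350490, minus strand), whose probe was not detected, holds 3 NRF1 matches.
Cox6a1: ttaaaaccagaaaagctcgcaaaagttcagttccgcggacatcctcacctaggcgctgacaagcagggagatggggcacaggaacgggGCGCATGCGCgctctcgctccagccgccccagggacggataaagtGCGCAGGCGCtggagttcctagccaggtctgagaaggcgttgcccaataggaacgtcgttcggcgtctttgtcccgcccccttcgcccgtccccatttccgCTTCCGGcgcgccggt
Cox6b1: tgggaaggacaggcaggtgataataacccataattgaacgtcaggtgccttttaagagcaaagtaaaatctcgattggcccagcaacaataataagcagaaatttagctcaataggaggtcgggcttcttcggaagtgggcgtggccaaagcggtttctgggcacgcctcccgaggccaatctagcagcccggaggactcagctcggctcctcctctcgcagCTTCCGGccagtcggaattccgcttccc
Cox6b2: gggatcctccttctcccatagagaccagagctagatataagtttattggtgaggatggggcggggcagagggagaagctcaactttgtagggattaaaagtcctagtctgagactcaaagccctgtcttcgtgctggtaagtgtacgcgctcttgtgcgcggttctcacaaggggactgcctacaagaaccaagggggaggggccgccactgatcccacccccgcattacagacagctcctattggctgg
Sdhd: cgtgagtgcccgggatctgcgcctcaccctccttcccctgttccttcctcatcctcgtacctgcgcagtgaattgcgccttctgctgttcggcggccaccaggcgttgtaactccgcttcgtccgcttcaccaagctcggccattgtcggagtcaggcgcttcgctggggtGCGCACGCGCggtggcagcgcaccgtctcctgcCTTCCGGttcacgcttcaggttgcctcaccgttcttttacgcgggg
Sdha: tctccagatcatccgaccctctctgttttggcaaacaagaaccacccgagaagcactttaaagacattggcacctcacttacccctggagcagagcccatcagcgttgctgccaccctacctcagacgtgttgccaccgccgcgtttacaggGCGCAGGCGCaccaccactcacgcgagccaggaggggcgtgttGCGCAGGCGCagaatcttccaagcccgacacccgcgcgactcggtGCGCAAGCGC

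The spread of the members between replicate arrays was as follows. The median within-group SD of the 76 genes was 0.115 on the CD103+ arrays and 0.181 on the CD103- arrays, against 0.156 and 0.236 over all genes. The median SE of the difference was 0.158 for the members and 0.154 for the other genes of similar level. In a principal component analysis of the members, the leading axis held 50.4% of the variance. CD103- arrays 2 and 3 scored 1.51 and 1.34 on it and CD103- array 1 scored -1.16, while the scores of the CD103+ arrays were -0.717, -1.45 and 0.470. The axis thus set the dim CD103- arrays apart from the remaining arrays and did not separate the populations. Over all 8999 genes the leading axis (46.7%) placed the CD103+ arrays at -22.1 to -12.7 and the CD103- arrays at 1.91 to 26.6, so there the populations did not overlap. The dim CD103- arrays 2 and 3 scored 26.6 and 26.5 on that axis and CD103- array 1 scored 1.91. The part of array brightness in it was not tested.

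**Figure D4:**
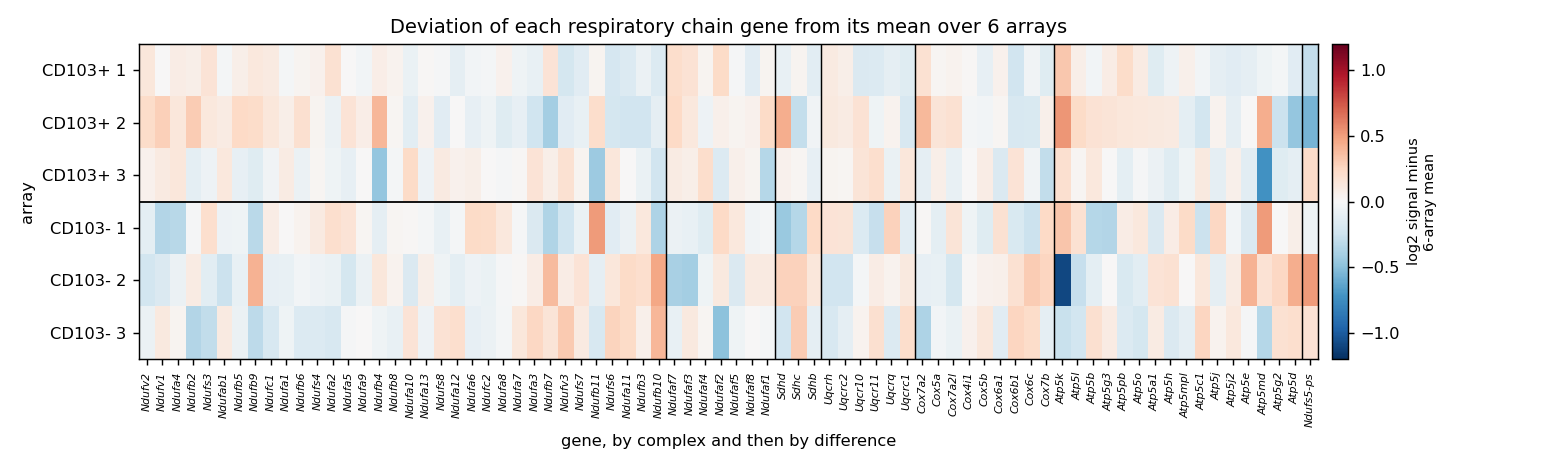
Deviation of each of 76 respiratory chain genes from its mean over 6 arrays on the normalized log2 scale, with arrays in rows and genes in columns by complex and then by difference. Red and blue cells occur in every row, and the deepest blue cell is Atp5k on CD103- array 2.

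A few members separated the populations. By gene, 7 of 76 members (9.21%) had every array of one population above every array of the other, against 23.2% of all genes and 26.0% of genes of similar level. Of the 7, 4 were higher and 3 lower, against 14.5% and 8.72% of all genes. The higher ones were Ndufa4, Ndufv2, Ndufaf7 and Cox5a. The lower ones were Ndufb3, Atp5d and Atp5g2. By probe there were 5 higher and 6 lower of 109, against 21.9% of all probes in either direction. The additional probes were second probes of Ndufc1 (higher) and of Ndufa8, Ndufb10 and Atp5a1 (lower). Read within replicate numbers, 22 of 76 members (28.9%) differed in 1 direction at all 3 numbers, 10 higher and 12 lower, against 44.0% of all genes. They included Sdhd and Cox7a2, higher at each number, and Cox7b, Ndufa11 and Cox6b1, lower at each number. With the replicate block their limma adjusted p-values were 0.383, 0.353, 0.399, 0.416 and 0.575. The shares were not tested against each other.

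For 25 member genes more than 1 probe was kept. The probes of 16 genes had differences of 1 sign and those of 9 had both signs, and the median span within a gene was 0.11 on the log2 scale. The widest span was that of Ndufv3, an accessory subunit of the NADH module, at -0.32 to 0.54. Its probe at 0.54 was detected on 1 of 3 CD103- arrays, and its probe of highest mean had -0.12 (SE 0.195).

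The mitochondrially encoded subunits were not part of the set and are given beside it. All 8 on the array were detected on all 6 arrays, 0 passed the limma test, and 1 had an unadjusted p under 0.05. Their median log2 difference was -0.19, and 6 of 8 were negative. ND5, a proton-pumping subunit of complex I, had 6.94, 7.10 and 5.86 on the CD103+ arrays and 7.34, 7.89 and 8.22 on the CD103- arrays. Its difference of -1.18 (SE 0.368) had an unadjusted p of 0.0137 and a limma adjusted p of 0.209, with every CD103+ array below every CD103- array. ATP6, the proton channel of ATP synthase, had -0.24 (SE 0.149), and its populations did not overlap either. Its CD103- array 1 (13.93) was only just above CD103+ array 1 (13.92), and the dim CD103- arrays 2 and 3 had 14.28 and 14.14. Of the 8 genes, 2 were lower without overlap, against 8.72% of all genes. COX2 and CYTB, subunits of complexes IV and III, had -0.19 (SE 0.175) and -0.19 (SE 0.166), and ND4L had 0.52 (SE 0.418).

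Other genes of mitochondrial energy metabolism likewise gave 0 passing genes in every list by limma. The counts of higher and lower genes that follow are at an unadjusted p under 0.05, which 14.2% of all genes reached. Of the 12 electron carrier and coenzyme Q genes, 2 were higher and 0 lower at that level, with a median difference of 0.06. Cycs, cytochrome c, had 0.08 (SE 0.136), and Cyc1, the cytochrome c1 of complex III, had -0.18 (SE 0.165). Of 30 kept assembly factors with other names, 2 were higher and 1 lower at that level, with a median of -0.03. Among the 15 kept tricarboxylic acid cycle genes, 1 was higher at the unadjusted level, Idh2 (mitochondrial isocitrate dehydrogenase), at 0.53 (SE 0.207, limma adjusted p = 0.299), and the median was 0.05. Among 20 regulators of mitochondrial biogenesis, 2 were higher and 1 lower at the unadjusted level, with a median of 0.04. Tfb1m, which methylates mitochondrial ribosomal RNA, had 7.79, 8.07 and 7.45 on the CD103+ arrays and 7.44, 6.52 and 6.71 on the CD103- arrays. Its difference of 0.88 (SE 0.277, limma adjusted p = 0.214) did not pass, and CD103+ array 3 and CD103- array 1 were nearly equal. Twnk, the mitochondrial DNA helicase, had -0.65 (SE 0.220, limma adjusted p = 0.240), and Tfam, which packages mitochondrial DNA, had 0.14 (SE 0.173). The 72 kept mitochondrial ribosome genes had a median of -0.02 with 0 higher and 1 lower at the unadjusted level, Mrps5. The 9 kept genes of oxidant defence and uncoupling had a median of 0.15 with 0 in either direction.

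**Figure D5:**
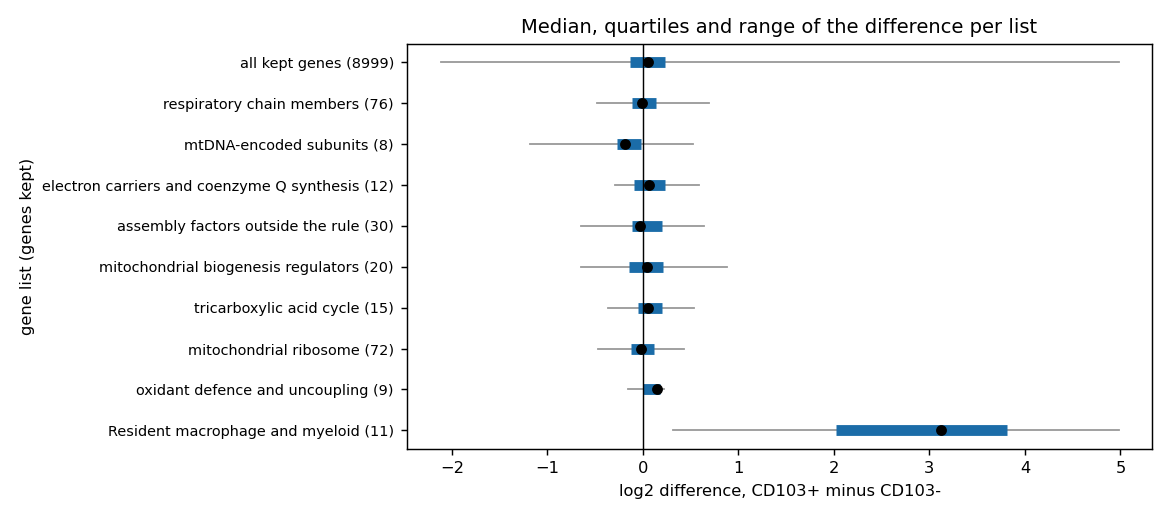
Median (point), quartiles (thick bar) and range (thin line) of the log2 difference, CD103+ minus CD103-, for each gene list, with the number of kept genes in brackets. The mitochondrial lists have medians between -0.19 and 0.15, and the macrophage and myeloid list has a median of 3.12. That list includes genes undetected on every CD103- array.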

How the data were processed

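Expression was measured on Illumina mouse bead arrays in 3 CD103+ and 3 CD103- samples. The authors deposited a table of unnormalized probe intensity with a detection p-value per array, per the file headers, and a second table of log2 values whose normalization is not given in the sources used here. Of 45281 lines, 18 with shifted columns were left out. Depth has no counterpart on arrays, and 3 arrays a group limit the precision. The neqc function of limma 3.58.1 (R 4.3.3) estimated the background from the detection p-values, added an offset of 16 and gave quantile-normalized log2 signals. The 17462 probes that were detected (p under 0.05) on 3 or more of the 6 arrays went into two-sided tests by lmFit and eBayes. P-values were adjusted by the Benjamini-Hochberg method across these probes, and 0.05 was the threshold. A single symbol from the array annotation was available for 34874 probes. Where the gene identifier of a probe matched RefSeq, the RefSeq symbol replaced it, and membership was decided on the resulting symbols. Where a gene had several kept probes, that of highest mean stood for it. Array values are named for members with the largest differences in each direction per complex (up to 2 each), the brightest member of each complex and tissue isoform pairs. Ndufb3, second probes and genes of other lists were named after their values were seen. The members, lists and tests were chosen with earlier results of these data known.

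Replicate numbers were checked for pairing by correlating array deviations from group means over kept probes. Equal numbers gave 0.170, 0.125 and 0.305 and unequal numbers -0.231 to 0.0824. All equal pairs exceeded 0.1, so the numbers were taken to pair the arrays, although no label states it. The main test had no block, and the blocked fit is an alternative. Other alternatives changed the background correction, offset, normalization, filter, variance model, arrays used, covariate and threshold. Median scaling over kept probes and the counts of directions within replicate numbers and across settings were added after seeing the data.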

Additional observations from a re-analysis of the deposited data

How the results depend on the processing

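Of 22 alternative settings of the test, 21 gave 0 member probes past the threshold, including the replicate block, which changed no member's call. The exception was scaling to the median of all probes, which gave 57. The 0 at an adjusted p of 0.01 followed from the 0 at 0.05. Where few probes of the whole array passed, as with array brightness as a covariate, a 0 among the members says little. The count over the whole array, 206, moved more. It was 324 without background correction, 7154 with scaling to the median of all probes, 313 with the authors' values, 130 for probes detected on all 6 arrays, 369 with an intensity trend and robust eBayes, 397 with array weights, 83 with the replicate block, 135 without the dim CD103- arrays 2 and 3, 8 with array brightness as a covariate, and 60 at an adjusted p of 0.01. Leaving out 1 array at a time gave 52 to 857, with 52, 59 and 54 without CD103+ arrays 1, 2 and 3 and 857, 120 and 114 without CD103- arrays 1, 2 and 3. The cause was not tested. The median difference of the members, -0.01, was 1.07 with scaling to the median of all probes (0.05 after centring on all genes), 0.10 with the authors' values (-0.06 after centring), -0.03 without a filter, 0.05 with scaling over kept probes, and 0.00 to 0.03 when leaving out 1 array. The median over all genes under the authors' values was 0.16. Of 692 values of named members under the alternatives, 587 moved by less than 1 SD, 89 moved further and 16 passed, all 16 under scaling to the median of all probes. Signal near background limits Atp5k and the undetected genes.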
